A study of Mus musculus with 2 samples.

Results

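The genes described here are those of the retinoic acid receptors and of the enzymes that make and destroy retinoic acid: Rara, Rarb, Rarg, Rxra, Rxrb, Rxrg, Aldh1a1, Aldh1a2, Cyp26a1 and Cyp26b1. They were listed by name and not by a cut on any measured value, but the list was proposed with earlier results of these data known. They are 10 of 21938 protein-coding genes in the mouse annotation used (GENCODE M21, on the mm10 build). DNase-seq maps open chromatin: the nuclease DNase I cuts DNA that nucleosomes leave exposed, and the cut ends are sequenced. Whole hindbrain, which holds the cerebellum, pons and medulla, came from healthy mice of the strain B6NCrl on postnatal day 0, with males and females pooled. There is 1 group with 2 biological replicates and no treatment, genotype or second time point, so the values below describe open sites at these genes in each replicate. Both replicates are recorded under the same donor entry, the labels do not state how many animals each one holds, and the tissue mixes neurons, glia, vessels and meninges.

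Retinoic acid is a small lipid made from vitamin A. Aldehyde dehydrogenases such as Aldh1a1 and Aldh1a2 oxidise retinal to retinoic acid, and cytochromes of the Cyp26 family break it down, so their positions set where the signal is present. Retinoic acid binds a nuclear receptor of the RAR family (Rara, Rarb, Rarg), which sits on DNA together with a partner of the RXR family (Rxra, Rxrb, Rxrg); the pair recruits corepressors without ligand and coactivators with it. Receptor pairs recognise direct repeats of a short hexamer, and in the embryonic hindbrain retinoic acid from the adjoining mesoderm patterns the rhombomeres through the Hox genes.

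Peaks are the narrow open sites called by the authors in each replicate. Those on the autosomes and the X and Y chromosomes were used, 270757 of 271150 in replicate 1 and 171790 of 172002 in replicate 2. Each carries the authors' score, a number from 1 to 150 whose scaling is not stated and whose median was 45 in replicate 1 and 38 in replicate 2. Since the scales of the replicates may differ, a score is read within its own list, and a percentile below is the rank of a score among all peaks of that replicate. Hotspots are the authors' broader enriched stretches, with a value of −log10 q that is capped at 100. Read depth is unknown, so a missing peak means only that none was listed there. Peaks lay at the start sites of 7 of 7 hindbrain markers in both replicates (Hoxb4, Hoxb2, Egr2, En2, Zic1, Barhl1, Pax2). Over all protein-coding genes the share with such peaks was 66.3%, so the marker counts alone do not identify the tissue. The forebrain markers Emx1 and Lhx6 each had a promoter peak in 1 replicate only. Of other cell types, 2 of 3 endothelial markers and 0 of 2 liver markers had promoter peaks in both, and meningeal markers are given beside Aldh1a2. In a whole tissue, a site open in few cells and a site weakly open in many cannot be told apart.

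Rarb and Cyp26a1 are textbook genes induced by retinoic acid itself. Their RefSeq promoters (250 bases before to 50 after the start site) were the ones among 18 promoters of these 10 genes that held a direct repeat with a spacer of 5 bases. They are shown because the DNase data differ at the pair. Capitals mark the whole repeat with its spacer, and each sequence is written 5′ to 3′ on the gene's own strand (GRCm38.p6, the mm10 build).
Rarb, chr14:16575507-16575535, minus strand: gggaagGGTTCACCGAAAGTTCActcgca
Cyp26a1, chr19:37697770-37697798, plus strand: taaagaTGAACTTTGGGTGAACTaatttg
In Rarb the repeat runs in the direction of the gene and reads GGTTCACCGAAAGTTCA. At Cyp26a1 the repeat lies on the strand opposite to the gene and reads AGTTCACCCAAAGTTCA.

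Of the open sites away from start sites, those printed next ranked among the 3 highest of their gene and hold a motif searched for. Capitals mark the E-box CAGCTG in the Rara and Rarb sites, bound by basic helix-loop-helix factors of neurons, with the overlapping Meis hexamer TGACAG (here on the other strand) at the 5′ end of the Rarb site, and the CTCF core motif in the other sites, on either strand. None overlaps a GENCODE exon of its own gene or the span of another protein-coding gene.
Rara, chr11:98951436-98951605, plus strand, intron: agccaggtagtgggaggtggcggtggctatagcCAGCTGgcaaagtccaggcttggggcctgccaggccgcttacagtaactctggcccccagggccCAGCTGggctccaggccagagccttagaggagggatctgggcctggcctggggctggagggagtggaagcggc
Rarb, chr14:17172836-17173005, minus strand, outside the gene: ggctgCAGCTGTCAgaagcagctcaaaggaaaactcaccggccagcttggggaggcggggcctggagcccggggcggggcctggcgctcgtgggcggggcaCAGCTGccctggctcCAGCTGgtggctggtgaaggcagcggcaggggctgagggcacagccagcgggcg
Rxra, chr2:27699656-27699825, plus strand, intron: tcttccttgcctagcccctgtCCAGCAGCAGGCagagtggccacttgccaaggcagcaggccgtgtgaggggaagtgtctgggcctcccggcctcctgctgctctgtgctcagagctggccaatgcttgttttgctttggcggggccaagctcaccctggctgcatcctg
Aldh1a1, chr19:20449656-20449805, plus strand, outside the gene: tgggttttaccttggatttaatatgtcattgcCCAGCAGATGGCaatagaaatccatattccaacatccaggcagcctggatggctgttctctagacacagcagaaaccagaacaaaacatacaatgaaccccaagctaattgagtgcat
Cyp26a1, chr19:37704016-37704185, plus strand, outside the gene: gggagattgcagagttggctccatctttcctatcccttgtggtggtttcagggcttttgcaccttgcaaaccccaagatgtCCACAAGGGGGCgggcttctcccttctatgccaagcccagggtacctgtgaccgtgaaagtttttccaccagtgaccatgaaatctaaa
Cyp26b1, chr6:84407936-84408085, minus strand, outside the gene: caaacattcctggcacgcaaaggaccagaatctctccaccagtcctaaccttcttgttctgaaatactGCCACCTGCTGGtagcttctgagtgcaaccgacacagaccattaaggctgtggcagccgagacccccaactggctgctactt

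The first question was whether the start sites of these genes were open. All 6 receptor genes had a peak in both replicates within 500 bp of at least 1 annotated start site, and of the enzymes Aldh1a2 and Cyp26b1 did. Aldh1a1 had none in either replicate at its GENCODE starts, although it counts as open at a RefSeq start described below, and Cyp26a1 had a single weak peak in replicate 1. That makes 8 of 10 genes (80%), where 66.3% of all protein-coding genes had such peaks. The difference was not tested, and over 10 genes the count is a description.

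Most of these genes have several start sites, which were joined into start groups where their 500 bp windows touched. Of 27 start groups, 14 had a peak in both replicates (51.9%), 5 only in replicate 1, 1 only in replicate 2, and 7 had none. The share over all start groups of protein-coding genes was 36.9%. The receptors held 12 of the 14 open groups, out of 21, and the enzymes the other 2, out of 6. The promoter scores were not high for open genes: in 7 of the 8 genes the best promoter peak ranked below the median of all genes with a promoter peak, in both replicates. Rxrb was the exception, at percentile 81.1 in replicate 1 and 80.2 in replicate 2.

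**Figure D1:**
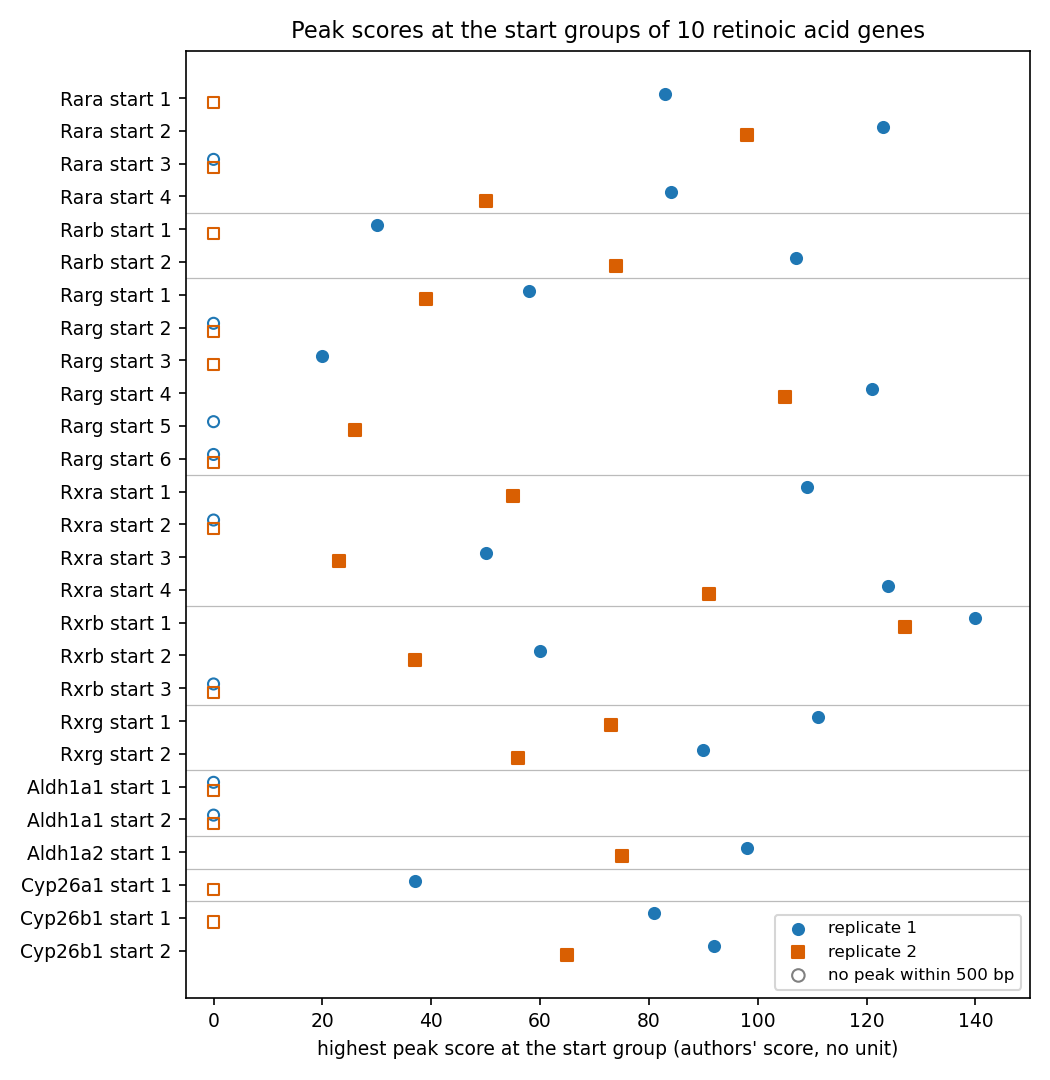
Highest peak score (authors' score, no unit) at each of the 27 start groups of the 10 genes, numbered from the gene's 5′ end, in replicate 1 (circles) and replicate 2 (squares). Open symbols at 0 mark groups with no peak within 500 bp. Rxrb start 1 has the highest scores of either replicate, 140 and 127, and Aldh1a1 has no peak at either start.

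Open sites away from the start sites were taken as the regions where peaks of both replicates overlapped by at least 1 bp. A region over 500 bp from every annotated start site was called distal and assigned to the protein-coding gene with the nearest start. The 10 genes had 98 distal regions, 68 at the receptors and 30 at the enzymes. Of the 10 genes, 9 had at least 1 (all but Rxrb), against 68.7% of protein-coding genes. The median was 5.5 regions per gene, and over all protein-coding genes it was 2. The count rests on the need for both replicates: peaks of replicate 1 alone gave 212 distal sites and peaks of replicate 2 alone gave 120.

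Genes differ in how much of the genome lies nearest to them. The territory of a gene is the stretch of genome nearer to its start sites than to those of any other protein-coding gene. It ran from 6.2 kb at Rxrb to 739.5 kb at Rarb. Per 100 kb of territory the genes had a median of 4.78 distal regions, and all protein-coding genes 3.5. Rara stood highest with 25.2, a density that 98.6% of protein-coding genes did not reach. Rarg with 15.2 and Rxra with 12.8 came next, and Aldh1a1 was lowest of those with any region, at 1.79.

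**Figure D2:**
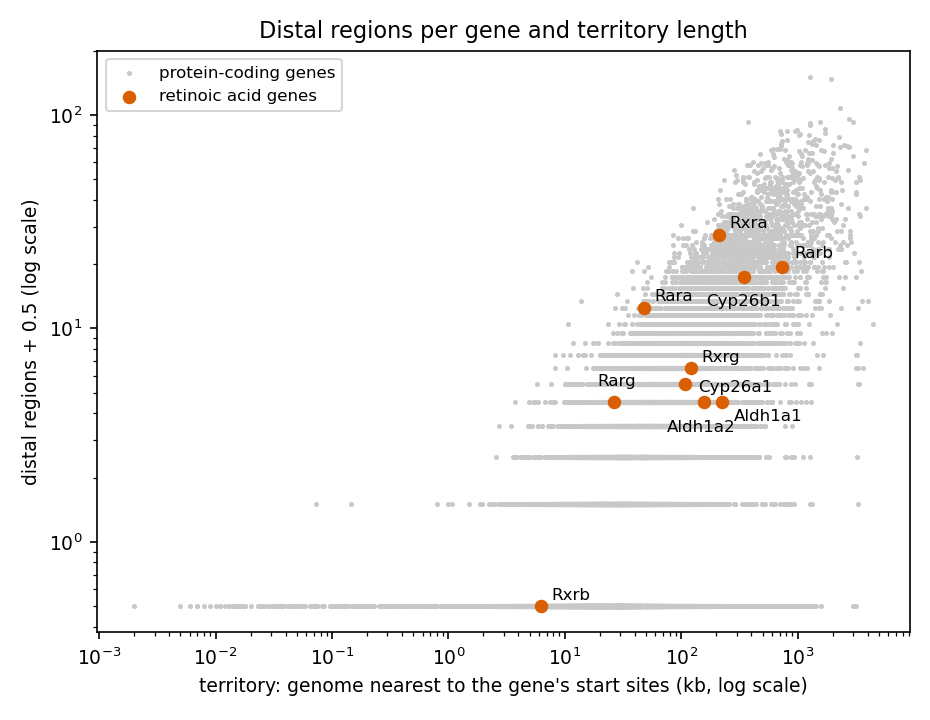
Distal regions per gene (plus 0.5, log scale) against the length of the gene's territory in kb (log scale), for all protein-coding genes (grey) and the 10 retinoic acid genes (orange). Rara, with 12 regions in 47.6 kb, and Rxra, with 27 in 211.2 kb, lie high in the cloud for their territory, and Rxrb, with 0, at its floor.

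With the regions at start sites and in gene bodies, 127 open regions were found in both replicates: 23 within 500 bp of an own start site and 104 away from one. Of the 104, 53 lay in introns, 47 outside the gene, 2 in a coding exon and 2 in another exon. Scores ran higher in replicate 1 at 123 of the 127, as at 96.2% of all 136714 shared regions of the genome. The order of the regions was alike in the replicates (Spearman's rho 0.894 over 127 regions, a description only, since all points come from the same libraries). Of the genes' 160 peaks in replicate 2, 82.5% overlapped a peak of replicate 1, and over all peaks the share was 82.5%. Of their 260 peaks in replicate 1, 49.6% overlapped one of replicate 2, and over all peaks 51.6%.

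**Figure D3:**
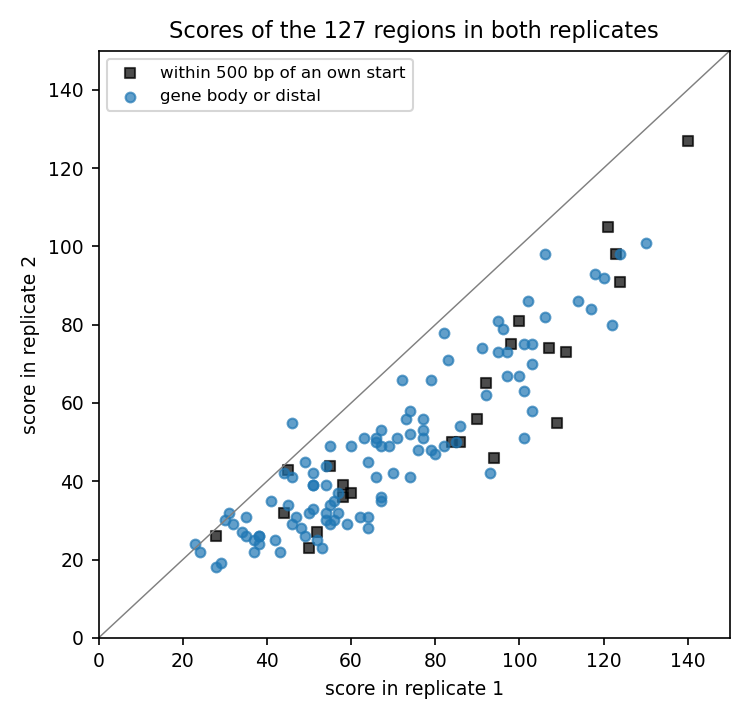
Peak score in replicate 1 (x axis) and replicate 2 (y axis), both the authors' score with no unit, at the 127 regions found in both, split into those within 500 bp of an own start site (black squares) and the others (blue circles). The line marks equal scores. All but 4 points lie under it, and the top right point is the Rxrb promoter, with 140 and 127.

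Rara encodes the most widely expressed of the RAR receptors. Its gene lies on the plus strand at chr11:98927818-98974942 and has 4 start groups. At the 5′-most start replicate 1 had a peak with a score of 83, centred 7 bp before the start, and replicate 2 had none. The start group 9880 bp further in was the strongest: replicate 1 had 123 and replicate 2 had 98, ranks at percentile 96.2 and 93.3 of all peaks. The last group, 32594 bp in, had 84 and 50, and the group between them, at 98939711, had no peak in either replicate. So 2 of the 3 downstream start groups were open in both replicates, and the 5′-most start in replicate 1 only.

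Rara's 12 distal regions filled its short territory of 47.6 kb, and 11 of them lay in the gene itself. The strongest region by rank, in an intron at chr11:98942136-98942305, had scores of 118 and 93. The intron region at chr11:98966736-98966885 had 114 and 86. The third, printed above with its pair of E-boxes, had 122 and 80 and lay 8891 bp before the last start group. The median scores over the 12 regions, 89.5 and 67, were the highest of the 9 genes with distal regions in either replicate. Peaks of replicate 1 alone gave 33 distal sites at Rara, and only 38.5% of the gene's 39 peaks in replicate 1 overlapped a peak of replicate 2, while 15 of its 16 peaks in replicate 2 overlapped one of replicate 1.

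Rarb, the receptor gene that retinoic acid itself induces, spans 388318 bp on the minus strand at chr14:16430839-16819156. Its 5′-most start, at 16819156, had a weak peak in replicate 1 (score 30, percentile 18.9) and none in replicate 2, and the 500 bp on each side of it hold 5 CpG sites, fewer than at most genes (percentile 11.9). RefSeq lists a further start, 263175 bp upstream of that, and no peak of either replicate lay within 500 bp of it. The second start group lies 243329 bp inside the gene. There replicate 1 had peaks of 107 and 58 and replicate 2 had peaks of 74 and 36. The open start of Rarb in both replicates was therefore the internal one, which carries the direct repeat printed above.

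That repeat lies 53 to 37 bp before the RefSeq start of the internal promoter. Peaks were listed at a fixed width of 150 bp (100% of them in each replicate), so a peak's end is not a measured edge of open chromatin. In replicate 1 the strongest peak ended 6 bp upstream of the repeat, and in replicate 2 the gap was 46 bp. The repeat was inside a hotspot in both replicates, and the hotspots reached the cap of 100. At Cyp26a1 the repeat lies 32 to 16 bp before the RefSeq start. The nearest peak of replicate 1 was 290 bp from it, the nearest of replicate 2 was 4590 bp from it, and it was inside no hotspot. The 2 promoters thus shared a repeat of the same spacing just upstream of the start, and an open site beside it was listed in both replicates at Rarb and in neither at Cyp26a1. The depth at which Cyp26a1 would have been called is unknown.

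**Figure D4:**
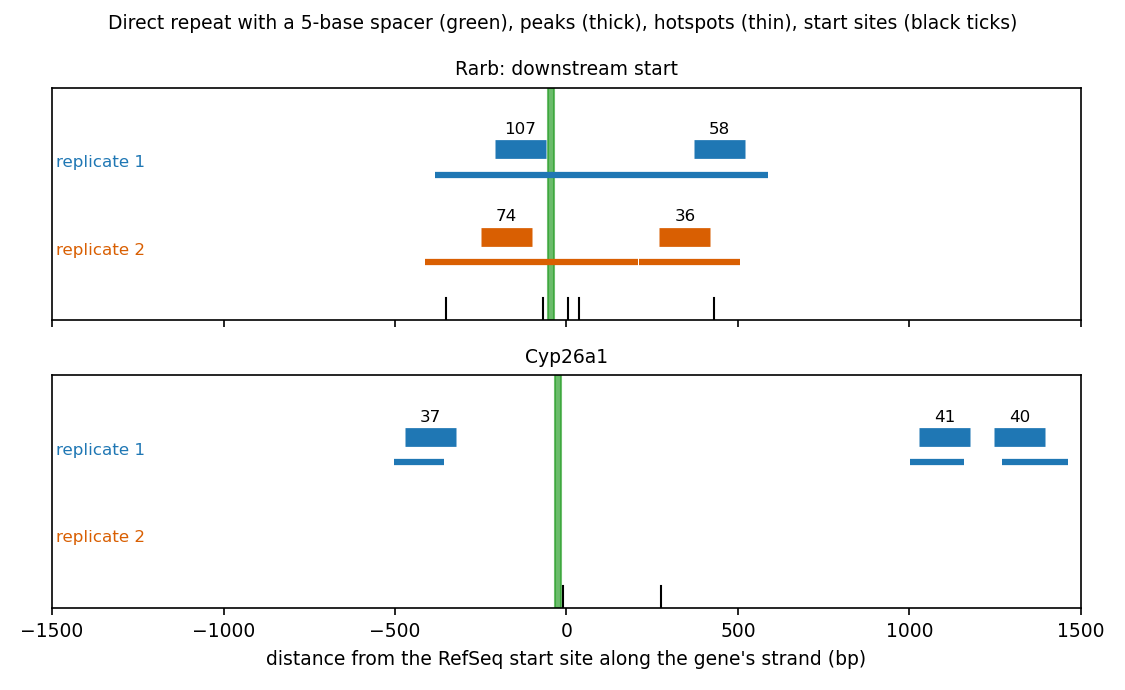
Peaks (thick bars, with their scores) and hotspots (thin bars) of replicate 1 (blue) and replicate 2 (orange) along 1500 bp on each side of the RefSeq start of Rarb's internal promoter (top) and of Cyp26a1 (bottom), by distance in bp along the gene's strand; green marks the direct repeat and black ticks the GENCODE start sites. At Rarb peaks of 107 and 74 sit just upstream of the repeat, and at Cyp26a1 the nearest is a peak of 37 in replicate 1.

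Distal regions of Rarb numbered 19, more than at 93.6% of protein-coding genes, over a territory whose density (2.57 per 100 kb) was below the median gene's. Of these, 12 lay in the gene and 7 upstream of it. The region of highest rank was the farthest: chr14:17172836-17173005, 353765 bp before the 5′-most GENCODE start, with scores of 106 and 82. It is also upstream of the far RefSeq start, while the other 6 upstream regions lie inside the gene as RefSeq draws it. The next, at chr14:16841056-16841205, lay 21975 bp upstream of the gene, with 95 and 81. The third, in the last part of the gene at chr14:16434476-16434645, had 72 and 66. It also overlapped the neighbouring topoisomerase gene Top2b, so it cannot be given to Rarb alone. In this part of Rarb 5 open regions, this one included, had their nearest coding start at Top2b. They were therefore counted in Rarb's body and not among its distal regions. Within 50000 bp of a start Rarb had 10 distal regions. Of its 41 peaks in replicate 2, 27 overlapped a peak of replicate 1 (65.9%), and single replicates gave 49 and 31 distal sites.

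Rarg, the third RAR, lies on the minus strand at chr15:102234938-102257517 and has 6 start groups in 22580 bp. The 5′-most group had modest peaks, 58 in replicate 1 and 39 in replicate 2. The strongest open site stood by the group 11017 bp in, with scores of 121 and 105 at 571 bp upstream of that start. Its near edge was 496 bp from the start, just inside the 500 bp window. The region over the start itself had 100 and 81. Weaker peaks lay beside them, and in each replicate the whole stretch was a single hotspot at the cap, 2484 bp wide in replicate 1 and 2001 bp in replicate 2. Of the other groups, 1 had a peak of 20 in replicate 1 only, 1 a peak of 26 in replicate 2 only, and 2 had none. Among the start groups of Rarg the highest scores were thus at an internal one in both replicates, as among those of Rara and of Rarb.

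All 4 distal regions of Rarg lay in its body. The highest, chr15:102239336-102239485, overlapped a coding exon and had scores of 97 and 67. The others, at chr15:102247856-102248105 (66 and 50), chr15:102249536-102249705 (51 and 39) and at 102247456 (46 and 41), were in introns. With hotspots in place of peaks, or with regions over 1000 bp from start sites, 2 distal regions were counted. Replicate 1 alone gave 7.

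**Figure D5:**
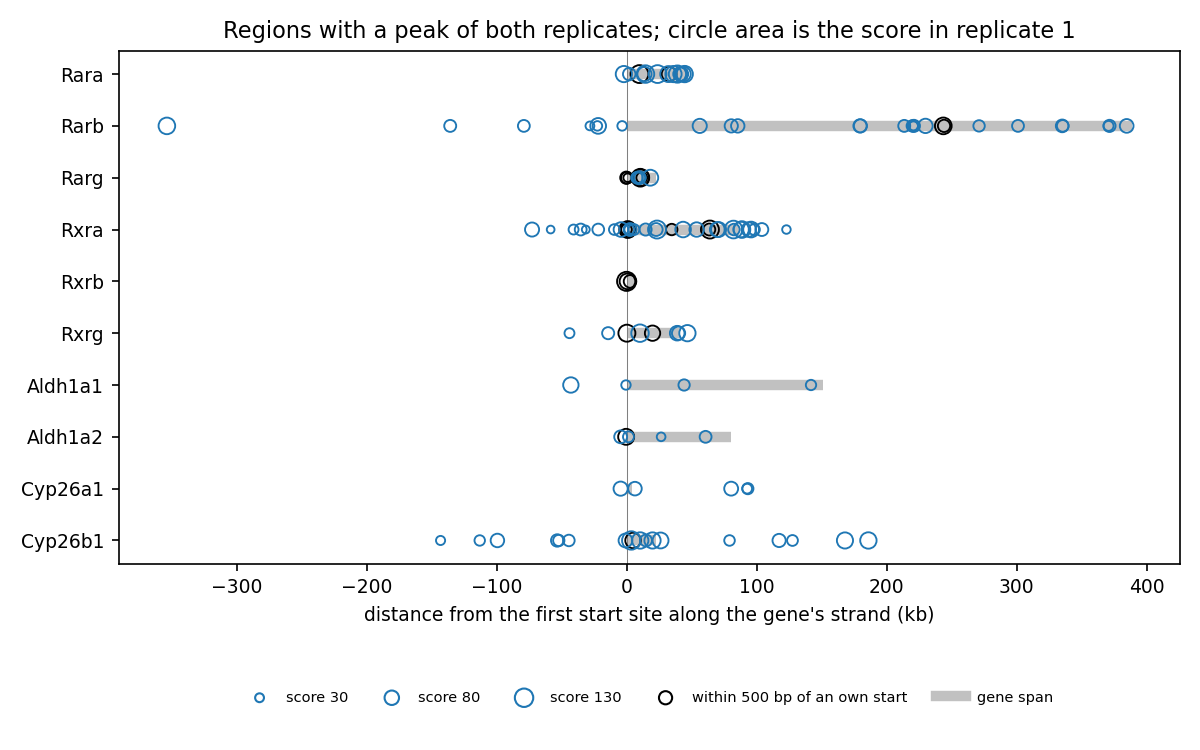
Position of the open regions found in both replicates along each gene's strand, as distance from the 5′-most start site in kb; grey bars are the gene spans, circle area is the score in replicate 1, and black circles lie within 500 bp of an own start site. Regions of Rarb reach from 353765 bp before its start to the end of the gene, and those of Rxrb lie at its start sites only.

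Rxra encodes the RXR partner most used by the RAR receptors in many tissues. It lies on the plus strand at chr2:27676440-27762957. Its 5′-most start group, of 3 start sites, had 4 peaks in each replicate. In replicate 1 their scores were 109, 86, 44 and 39, and in replicate 2 they were 55, 53, 50 and 32. The last start group, 63761 bp in, which has no protein-coding transcript, had the strongest promoter peak of the gene: 124 in replicate 1 and 91 in replicate 2. A start group 34143 bp in had 50 and 23, both nearly 500 bp from the start, and the remaining group had no peak. The order of the main start sites was the same in both replicates, with the internal one above the 5′-most.

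With 27 distal regions Rxra had more than 96.7% of protein-coding genes, 12 of them in the gene, 8 upstream and 7 past its end. The strongest was the intron region printed above at chr2:27699656-27699825, with scores of 124 and 98. The next were an intron region at chr2:27758496-27758645, with 120 and 92, and chr2:27765036-27765185, past the end of the gene, with 106 and 98. The lowest in rank had scores of 24 and 22, at 27644836. Peaks of replicate 1 alone gave 53 distal sites.

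Rxrb is the most compact of the receptor genes, 6588 bp on the plus strand at chr17:34031812-34038399, next to the zinc transporter gene Slc39a7, which is transcribed the other way. Its 5′-most start group had peaks of 140, 124 and 94 in replicate 1 and of 127 and 46 in replicate 2. The strongest lay 101 bp before the start, overlapped Slc39a7 and was nearer to a start site of that gene, so it cannot be given to Rxrb alone. The 500 bp on each side of the start hold 116 CpG sites (percentile 97.1). A second start group without a protein-coding transcript had 60 and 37, and the third had no peak. No distal region fell in its territory of 6.2 kb.

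Rxrg, the RXR with the narrowest expression, lies at chr1:167598384-167639623 on the plus strand. Both of its start groups were open in both replicates, at 111 and 73 for the 5′-most and 90 and 56 for the second, 19925 bp in. It was the one gene with more than 1 start group of which all had peaks in both replicates. Among all protein-coding genes with 2 or more start groups, 5.58% (690 of 12355) had peaks of both replicates at every group. Of its 6 distal regions, the intron region chr1:167608516-167608665 had 117 and 84. The next were chr1:167644996-167645145, past the end of the gene, with 102 and 86, and an intron region at chr1:167637116-167637285, with 82 and 78. Replicate 1 alone gave 17 distal sites.

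Aldh1a1, an aldehyde dehydrogenase that makes retinoic acid, spans chr19:20492715-20643465 on the plus strand. Neither of its 2 GENCODE start groups had a peak or a hotspot in either replicate, and the 500 bp on each side of the 5′-most start hold 9 CpG sites (percentile 20.3). A weak region, with scores of 34 and 27, lay 594 bp upstream of the start, its near edge 510 bp away. RefSeq lists a start at 20492583, and the peaks of this region lay within 500 bp of it, 378 bp away in replicate 1 and 398 bp in replicate 2. With that start added, or with windows of 1000 bp, Aldh1a1 counts as open, and 9 of the 10 genes do. The share of all protein-coding genes under these settings is not given, so 66.3% is no reference for this count. Its strongest region was chr19:20449656-20449805, 42984 bp upstream, with scores of 91 and 74 and the CTCF core printed above. The intron region chr19:20536756-20536925 had 49 and 45, and chr19:20634396-20634545, over a coding exon, had 41 and 35. With start sites of genes of any type, 2 of the 4 distal regions went to other genes, and replicate 1 alone gave 9 distal sites.

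Aldh1a2, the main enzyme of retinoic acid synthesis in the embryo, lies at chr9:71215789-71296243 on the plus strand with a single start site. Replicate 1 had peaks of 98, 55 and 46 there and replicate 2 had a peak of 75. The peaks of 98 and 75 cover the same bases, centred 458 bp before the start. Within 500 bp of the start there are 118 CpG sites (percentile 97.4). Aldh1a2 is also a marker of meningeal fibroblasts, which a hindbrain dissection can carry. Of the other markers on that list, Foxc1 (104 and 70), Col1a1 (123 and 98) and Tbx18 (125 and 99) were open at a start site in each replicate, and Foxd1 (58) in replicate 1 only. Their part in the result was not tested.

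The 4 distal regions of Aldh1a2 had median scores of 50 and 41.5. The highest, chr9:71211016-71211165, 4698 bp upstream, had 63 and 51. In introns, chr9:71217056-71217205 had 46 and 55, higher in replicate 2, and chr9:71276296-71276605 had 54 and 32. Single replicates gave 8 and 7 distal sites, for replicate 1 and replicate 2.

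Cyp26a1 encodes an enzyme that degrades retinoic acid. The gene is 3739 bp long, on the plus strand at chr19:37697798-37701536, beside its relative Cyp26c1. Its start group had a peak of 37 in replicate 1 (percentile 35.4), centred 387 bp before the start, and none in replicate 2. The CpG count around the start, 72, was above that of most genes (percentile 77.8), although no peak was found there in both replicates. All 5 distal regions lay outside the gene. The strongest, chr19:37693016-37693185, had 77 and 51 and lay inside Cyp26c1, 4697 bp upstream. On the other side, chr19:37704016-37704185, printed above, had 71 and 51, and chr19:37778056-37778205 had 74 and 41. With a limit of 50000 bp, or with start sites of genes of any type, 2 of the 5 were counted, and replicate 1 alone gave 8.

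Cyp26b1, the Cyp26 enzyme found in brain and limb, lies on the minus strand at chr6:84571414-84593908. The 5′-most start group had a peak of 81 in replicate 1 and none in replicate 2. The group 5270 bp in was open in both, with 92 and 68 in replicate 1 and 65 in replicate 2. None of the RefSeq starts of Cyp26b1 had a peak of replicate 2 within 500 bp, so its call as open rests on the GENCODE starts. The strongest open site of the locus was in the intron between those start groups: chr6:84590356-84590505 had 130 in replicate 1 and 101 in replicate 2, ranks at percentile 97.2 and 93.9 of all peaks. Of the regions away from start sites in all 10 genes, it had the highest score in each replicate.

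Distal regions of Cyp26b1 numbered 17, more than at 92.4% of protein-coding genes: 4 in the gene, 7 upstream and 6 past its end. The next in rank were chr6:84407936-84408085, 179669 bp from the nearest start of the gene, with 103 and 70, and chr6:84567816-84567965, with 97 and 73. Upstream, 6 regions lay inside Exoc6b, a gene of the exocyst complex, and have Cyp26b1's start as their nearest. Within 50000 bp 7 regions were counted, 10 were counted with start sites of genes of any type, and replicate 1 alone gave 28. The enzymes thus differed in their counts: Cyp26b1 had 17 distal regions, and Aldh1a1, Aldh1a2 and Cyp26a1 had 4, 4 and 5. Their territories differ in length, from 344.9 kb at Cyp26b1 to 108.1 kb at Cyp26a1. Per 100 kb of territory Cyp26b1 had 4.93 and Cyp26a1 4.625, with 2.53 at Aldh1a2 and 1.79 at Aldh1a1.

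The sequences of the 127 regions were searched, in the 200 bp around each centre and on both strands, for direct repeats of the receptor hexamer with spacers of 1, 2 or 5 bases. The hexamer was AGGTCA, and it could also start with GG in place of AG and have GTT in place of GGT in its middle. With the plain hexamer these repeats are AGGTCANAGGTCA, AGGTCANNAGGTCA and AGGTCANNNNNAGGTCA. None of the 127 held any of them, and 0.162% of all 136714 shared regions did, so a match at any region was rare. Within 500 bp of the genes' start sites there were 7 repeats, at Rara, Rarb, Rarg (2, which overlap), Rxra, Rxrb and Cyp26a1. None was inside a peak of the fixed width of 150 bp, and the Rarb repeat was the one inside hotspots. Repeats spaced by 5 bases were found in 0.0974% of 32851 RefSeq promoters of 300 bp.

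The E-box CAGCTG was found in 38 of the 127 regions (29.9%), and in 20.6% of all distal regions and 14% of all promoter regions. The Meis hexamer TGACAG was in 27 (21.3%), against 19.2% of distal and 12.3% of promoter regions. The CTCF core was in 8 (6.3%), against 10.7% and 4.16%: 4 at Rxra and 1 each at Rxrg, Aldh1a1, Cyp26a1 and Cyp26b1. The AP-1 site TGANTCA was in 5 (3.94%), against 6.98% of distal and 3.46% of promoter regions. The full NFI palindrome was in 0, against 0.232% of distal and 0.0649% of promoter regions. These are counts of letters, not of bound sites, and no difference was tested.

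The rest of the pathway was read from 44 other genes. Of these, 34 had a promoter peak in both replicates (77.3%, where 66.3% of all protein-coding genes did), 4 in replicate 1 only and 6 in neither. Corepressors and coactivators were open throughout, 8 of 8, with Ep300 at 143 and 131, Ncoa2 at 140 and 133 and Ncoa3 at 140 and 130. The other partners of RXR were open in 9 of 10, among them Nr1h2 (146 and 126), Ppard (143 and 127) and Nr1h3 (130 and 118). Genes of vitamin A uptake and storage were open in 3 of 5. Among genes with a promoter peak their scores ranked low, at a mean percentile of 20.3 or less over the replicates. The retinol carrier receptor Stra6 had 96 and 62, the carrier Rbp4 65 and 35, and Lrat, which stores retinol as an ester, 53 and 34.

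Enzymes that make or use retinol and retinal were open in 7 of 11, with Rdh5 at 139 and 123, Rdh14 at 132 and 117 and Rdh11 at 113 and 95. Aldh1a7 and Dhrs9 had no promoter peak. The third Cyp26 gene, Cyp26c1, had none either, so of the 3 degrading enzymes only Cyp26b1 had a promoter peak in both replicates. The carriers of retinoic acid Fabp5 (131 and 114) and Crabp2 (81 and 50) were open in both replicates. Of the direct targets, 5 of 6 were open, with Hoxb4 at 102 and 63 and Tgm2 at 82 and 58, and Stra8, a gene of meiosis, had no promoter peak.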

How the data were processed

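DNase-seq of 2 biological replicates of 1 group was analysed. Per the labels' text and the authors' list of files, each library had its own calls, made on mm10 alignments after filtering and without pooling. Which aligner and caller were used, and with what threshold, was not given in the sources used here. The deposited peak tables hold a score per peak, a whole number, with empty p and q fields. The deposited hotspot tables hold −log10 q, from 1.30 to 100. Scores were used only to rank and describe peaks within a list.

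Start sites, exons and gene spans came from GENCODE M21, and sequences from the RefSeq genome and promoter table (GRCm38.p6), where all 10 genes matched. Regions were intersected with pandas 2.3.3 and numpy 2.4.6 in Python 3.11.15, sequences were read with pysam 0.24.0, and the code was checked on simulated data. With 1 group no test was made.

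The genes, lists and motifs were chosen with earlier results of these data known. Named pathway genes are up to 3 per group, those of highest mean percentile among genes open at a start in each replicate, and up to 2 open in none. Named regions are those at start sites and the 3 others of each gene with the highest mean percentile. The region at 102247456 in Rarg, the region of lowest rank of Rxra and the one 594 bp upstream of Aldh1a1 were added after their values were seen. Some genes of these lists are not reported here by name.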

Additional observations from a re-analysis of the deposited data

How the results depend on the processing

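Leaving out a replicate, so that peaks of the other were used alone, gave 120 to 212 distal regions of the 10 genes (98 with both), a median of 6.5 to 13 per gene (5.5 with both), 69 to 121 gene body regions (57 with both) and 0 to 1 direct repeats (0 with both). With only the peaks at or above the median score of each list, 60 distal regions were found. Counting the 5′-most start alone, 5 of the 10 genes were open in both replicates instead of 8, because Rara, Rarb and Cyp26b1 are open in both at an internal start. The share of all protein-coding genes is given only for the main setting (66.3%), which is no reference for counts under the alternatives. Windows of 400 bp gave 1 direct repeat, and whole hotspots, an alternative chosen after seeing the data, also gave 1, at Rarb in each case. The number of open genes was 8 to 9 under the other alternatives, and that of pathway genes 29 to 38. Counts with hotspots, lists of equal length, a reciprocal overlap of 50% and regions over 1000 bp from start sites stayed within 1.5 times for all 10 genes together. No paired analysis was possible because there is 1 group. Read depth is unknown, so what a deeper library would have listed at Aldh1a1 and Cyp26a1 cannot be given.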
